A study of Mus musculus with 12 samples.

Results

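The heart is driven by noradrenaline through adrenergic receptors and held back by acetylcholine through the muscarinic receptor M2. The genes described here are 9 parts of that system: the beta-1 adrenergic receptor (Adrb1), the alpha-1 receptors A, B and D (Adra1a, Adra1b, Adra1d), the M2 receptor (Chrm2), the stimulatory G protein alpha subunit (Gnas), the main cardiac adenylyl cyclases (Adcy5, Adcy6) and the receptor kinase Grk5. They were chosen by name, as the rows of the count table whose mouse Ensembl identifier carries one of these symbols. All 9 were found among 55401 rows, and all 9 were among the 16213 genes left after a filter on low counts.

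Total RNA of bulk heart tissue was sequenced from wild-type C57BL/6J mice, an inbred strain, in 4 groups of 3 libraries: exercised females (FEX), sedentary females (FSE), exercised males (MEX) and sedentary males (MSE). Exercise meant treadmill sessions of 45 min at 1 km/h on 5 days of each week over 6 weeks, and the sedentary mice, matched in age, were kept caged. The labels name no transgene or drug for any group, give no age, and do not say how each heart was trimmed. The labels do not say in words that each library is a separate animal, so the p-values here reflect only how far these libraries scatter, which may in part be technical.

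Noradrenaline from sympathetic nerves binds the beta-1 receptor, which acts through the stimulatory G protein on adenylyl cyclase; the cAMP made activates protein kinase A, and the beat becomes faster and stronger. Acetylcholine from the vagus nerve binds M2, which lowers cAMP through inhibitory G proteins and opens a potassium channel built from Kcnj3 and Kcnj5. Alpha-1 receptors work through a different G protein class, phospholipase C and protein kinase C. Grk5 phosphorylates activated receptors so that arrestins uncouple them.

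Promoter windows of RefSeq (GRCm38.p6) were matched for 6 of the 9 genes, and 3 are shown. Adcy5 and Adrb1 had the highest Pearson r with the base composition of the libraries. That composition was scored from annotated transcripts, and these windows were not part of it. Grk5 is the gene that passed the adjusted test between the sexes in the main setting, a call lost under several other settings given below. Each is the 250 bases before the annotated start on the + strand, 5′ to 3′, and capitals mark GC boxes (GGGCGG or its reverse complement). Adcy5 lies at chr16:35154614-35154863, Adrb1 at chr19:56721867-56722116 and Grk5 at chr19:60889499-60889748, and none of the 3 overlaps an annotated exon.
Adcy5: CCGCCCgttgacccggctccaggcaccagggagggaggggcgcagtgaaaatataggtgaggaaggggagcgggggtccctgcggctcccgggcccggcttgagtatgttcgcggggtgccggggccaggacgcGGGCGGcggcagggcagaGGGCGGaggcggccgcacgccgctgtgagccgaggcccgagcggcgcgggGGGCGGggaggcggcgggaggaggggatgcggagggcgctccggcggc
Adrb1: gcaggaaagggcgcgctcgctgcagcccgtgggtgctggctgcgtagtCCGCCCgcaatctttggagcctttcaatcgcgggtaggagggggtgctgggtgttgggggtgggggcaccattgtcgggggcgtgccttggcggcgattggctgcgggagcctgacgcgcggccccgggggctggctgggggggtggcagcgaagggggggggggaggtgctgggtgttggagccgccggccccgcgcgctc
Grk5: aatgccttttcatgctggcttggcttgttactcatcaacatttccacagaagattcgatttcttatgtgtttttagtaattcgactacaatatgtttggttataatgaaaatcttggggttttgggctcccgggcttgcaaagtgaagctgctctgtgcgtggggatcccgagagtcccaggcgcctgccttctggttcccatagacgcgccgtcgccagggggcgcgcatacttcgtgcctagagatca
The Adcy5 window has 78.0% G and C with 4 GC boxes, and the Adrb1 window has 74.0% with 1. The Grk5 window has 49.6% and no GC box, against a median of 52.4% over all 32851 windows, of which 32.7% hold a GC box. The cAMP response element (TGACGTCA, in 1.55% of windows), the E-box (CACGTG, in 6.02%), the nuclear receptor core AGGTCA (in 14%), the steroid receptor core AGAACA (in 16.1%) and the TATA box (TATAAA, in 12.4%) were searched on both strands and were in none of these 3 windows. None of the 6 motifs contains another, and a missing match says only that these letters are not in the window.

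All 9 are protein-coding genes, with these positions in GENCODE M21 (GRCm38). Among the receptors, Adrb1 lies at chr19:56722199-56733113 (+), Adra1a at chr14:66635251-66771168 (+), Adra1b at chr11:43774606-43901210 (-), Adra1d at chr2:131545850-131562283 (-) and Chrm2 at chr6:36388084-36528414 (+). Gnas lies at chr2:174284320-174346744 (+), Adcy5 at chr16:35154877-35305738 (+), Adcy6 at chr15:98589973-98610076 (-) and Grk5 at chr19:60889749-61095968 (+). Gnas has 24 annotated transcripts, the most of the set, and the counts sum over them.

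Libraries held between 22204349 and 32566240 counts. FSE 2 held 27.3% of its counts on mitochondrial genes, which stood at 0 in the other 11 libraries and were removed by the filter. Transcripts of the atrium were uneven: Myl7, which encodes a light chain of atrial myosin, stood at 107 CPM (counts scaled to library size) in FEX 2, 65.6 in FSE 1 and 23.0 in FSE 2, and was at most 2.33 CPM in the other 9 libraries. MSE 3 stood apart in base composition. An index of it, the mean log2 deviation of the fifth of genes richest in G and C minus that of the poorest, was -0.27 in MSE 3 and lay between -0.14 and 0.18 in the others. Heart muscle markers summed to 51840 to 61180 CPM in every library. Th and Slc18a3, which nerve cells need to make or load the transmitters, had 0 counts in all and Chat had 3. Other genes of these kinds were present. Of 8 listed autonomic neuron markers 4 passed the filter on low counts, and the list summed to 42.9 to 69.3 CPM over the libraries. Of 11 listed genes of catecholamine handling 9 passed the filter.

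Per length, the levels of the 9 genes differed by over an order of magnitude. In RPKM, here CPM divided by the merged exon length in kilobases, averaged over the 12 libraries, Adcy6 was highest at 36.8. Chrm2 (13.7), Adcy5 (12.4), Gnas (10.4), Adra1b (9.31), Adrb1 (7.70) and Grk5 (7.36) followed, and Adra1d (2.03) and Adra1a (1.77) were lowest. Neighbours in this order differed by less than the larger SD of the pair over the 12 libraries, apart from Adcy6 over Chrm2 and Grk5 over Adra1d. The places of Gnas and Adra1a depend on the length used: with the longest transcript, Gnas stood at 29.6 RPKM and Adra1a at 3.6. Chrm2 made up 98.5% ± 0.617 of all muscarinic receptor RPKM (SD, n = 12). Among the alpha-1 receptors Adra1b held 70.7% ± 3.71, Adra1d 15.6% ± 2.36 and Adra1a 13.7% ± 2.38, but with the longest transcript Adra1a held 24.1% and Adra1d 13.5%. Adcy6 held 55.7% ± 1.99 of the cyclase total and Adcy5 18.7% ± 1.45, while the third in order, Adcy4, held 14% ± 1.16. Grk5 held 24.7% ± 3.92 of the receptor kinase total, behind Grk2, the kinase recruited by free G protein beta and gamma subunits, at 51.4% ± 3.83.

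**Figure D1:**
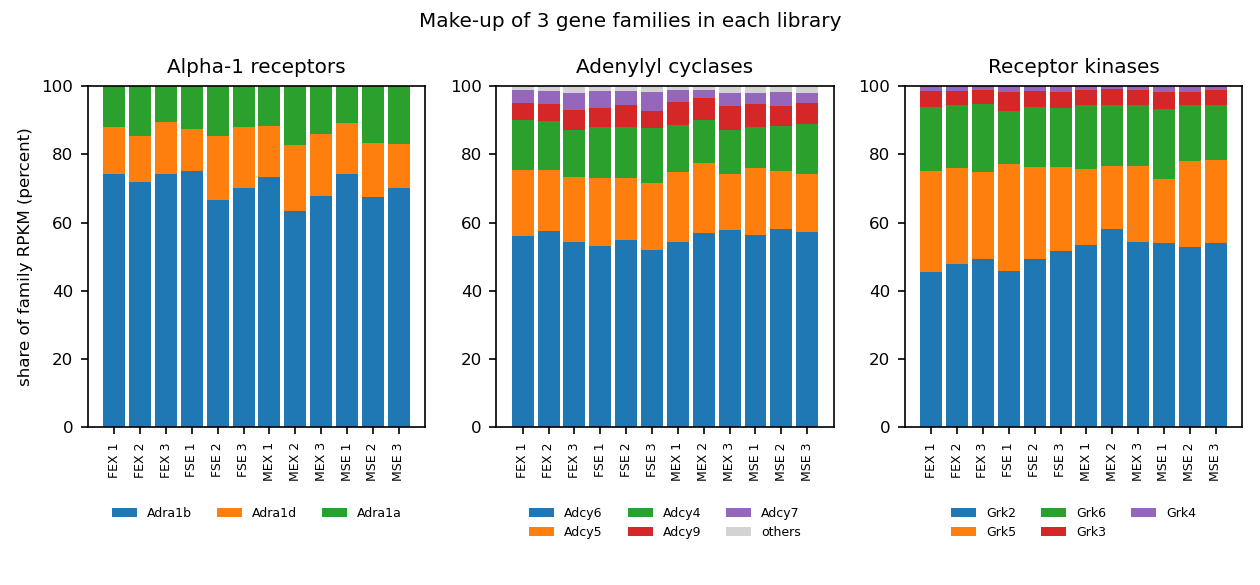
Share of each gene in the summed RPKM of its family (percent, stacked to 100), one bar per library, for alpha-1 receptors, adenylyl cyclases and receptor kinases. Adra1b and Adcy6 are the largest parts of their families in every library, and the Grk5 share runs between 18.3% and 31.1%.

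The receptor that carries the sympathetic drive, Adrb1, had 22.1, 35.3 and 21.3 CPM in the FEX libraries, against 25.9, 30.5 and 18.5 CPM in the FSE libraries. These groups overlap widely. In males it had 31.3, 39.1 and 24.5 CPM in MEX, against 20.6, 27.4 and 16.1 CPM in MSE. The male groups overlap by 1 library on each side, since MEX 3 lies below MSE 2. The log2 fold change was 0.56 ± 0.28 in males (SE; 95% interval -0.07 to 1.19; adjusted p = 0.64, edgeR's quasi-likelihood test) and 0.07 ± 0.28 in females (adjusted p = 1). The effect in females minus that in males was -0.49 ± 0.40 (adjusted p = 0.936), so a difference between the sexes was not shown. The male value was 0.38 without MEX 2, 0.40 without MSE 3 and 0.78 without MSE 2, none past the test, and 0.19 ± 0.21 with the base composition index as a covariate.

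Adra1b was the most abundant alpha-1 receptor per length. It had 34.9, 26.8 and 36.9 CPM in FEX, against 34.9, 25.0 and 27.6 CPM in FSE. In males it had 38.1, 25.2 and 27.7 CPM in MEX, against 41.0, 29.7 and 30.1 CPM in MSE. The 4 groups of Adra1b overlap, with log2 fold changes on exercise of 0.17 ± 0.20 in females (adjusted p = 1) and -0.15 ± 0.20 in males (adjusted p = 0.877). Adra1a, the subtype tied to protective signalling in mouse heart muscle cells, had 14.4, 14.1 and 13.7 CPM in FEX, against 15.3, 14.1 and 12.2 CPM in FSE. Its male libraries had 15.9, 17.6 and 14.8 CPM in MEX, against 15.3, 19.0 and 18.8 CPM in MSE. The exercise effect on Adra1a was 0.02 ± 0.11 in females and -0.14 ± 0.11 in males (adjusted p = 0.776). Adra1d, mainly a receptor of vascular smooth muscle, ran from 2.84 to 4.22 CPM in FEX and from 3.16 to 3.93 CPM in FSE. In males Adra1d ran from 4.13 to 4.34 CPM in MEX and from 3.17 to 4.68 CPM in MSE, and no exercise effect on it passed the test.

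Chrm2, the receptor of the vagal brake, had 72.7, 65.5 and 90.7 CPM in FEX, against 69.2, 75.5 and 79.2 CPM in FSE. In males it had 91.0, 82.6 and 85.4 CPM in MEX, against 88.6, 96.3 and 96.7 CPM in MSE. Only FEX 3 among the female libraries reached the level of the male ones. Exercise effects were 0.03 ± 0.10 in females (adjusted p = 1) and -0.12 ± 0.10 in males (adjusted p = 0.78), and the 95% intervals end at 0.25 above and -0.34 below.

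Gnas, whose protein couples the beta receptor to the cyclases, was the most variable of the 9, with a highest level 7.21 times the lowest. It had 89.0, 133 and 127 CPM in FEX, against 142, 130 and 85.3 CPM in FSE. In males it had 142, 186 and 121 CPM in MEX, against 90.2, 131 and 25.7 CPM in MSE. The low value of MSE 3 rests on 545 counts. Among 6225 genes with a mean of at least 20 CPM, Gnas was the second by the gap of MSE 3 to the lowest other library, 1.71 on the log2 scale, and 8 genes had a gap of more than 1. The exercise effect in males, 0.86 ± 0.50 (adjusted p = 0.691), was 0.43 without MSE 3, 1.36 without MSE 2 and 0.46 ± 0.46 with the base composition index as a covariate. In females it was -0.03 ± 0.50 (adjusted p = 1). Annotated exons on the opposite strand cover 8.83% (Nespas) and 13.1% (Gm20721) of the Gnas exons, and since the strand setting of the counting is not given in the sources used here, reads of both strands there cannot be told apart. The same holds for 8.92% of the exons of Adcy6, 7.74% of those of Adra1d and 2.35% of those of Chrm2.

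Adcy6 varied least of the 9, with a highest level 1.46 times the lowest, against 1.58 for Adcy5. Adcy6, inhibited by calcium and the most abundant cyclase here, had 262, 275 and 211 CPM in FEX, against 248, 272 and 203 CPM in FSE. In males it had 232, 296 and 241 CPM in MEX, against 243, 268 and 244 CPM in MSE. All groups of Adcy6 overlap, and exercise effects were 0.05 ± 0.12 in females and 0.03 ± 0.12 in males, with 95% intervals inside -0.25 to 0.32. Adcy5, its close relative, had 95.7, 90.7 and 77.3 CPM in FEX, against 97.2, 94.8 and 82.2 CPM in FSE. The MEX libraries had 93.6, 113 and 71.4 CPM of Adcy5, against 88.9, 83.7 and 76.4 CPM in MSE. The exercise effect on Adcy5 was -0.06 ± 0.14 in females and 0.16 ± 0.14 in males (adjusted p = 0.798).

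Grk5, the desensitising kinase, had 62.9, 61.5 and 54.9 CPM in FEX, against 70.3, 61.2 and 48.2 CPM in FSE. In males it had 45.9, 38.8 and 43.0 CPM in MEX, against 36.7, 51.9 and 48.2 CPM in MSE. Exercised and sedentary libraries overlap in both sexes. Exercise effects were -0.00 ± 0.14 in females and -0.10 ± 0.14 in males (adjusted p = 0.895).

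**Figure D2:**
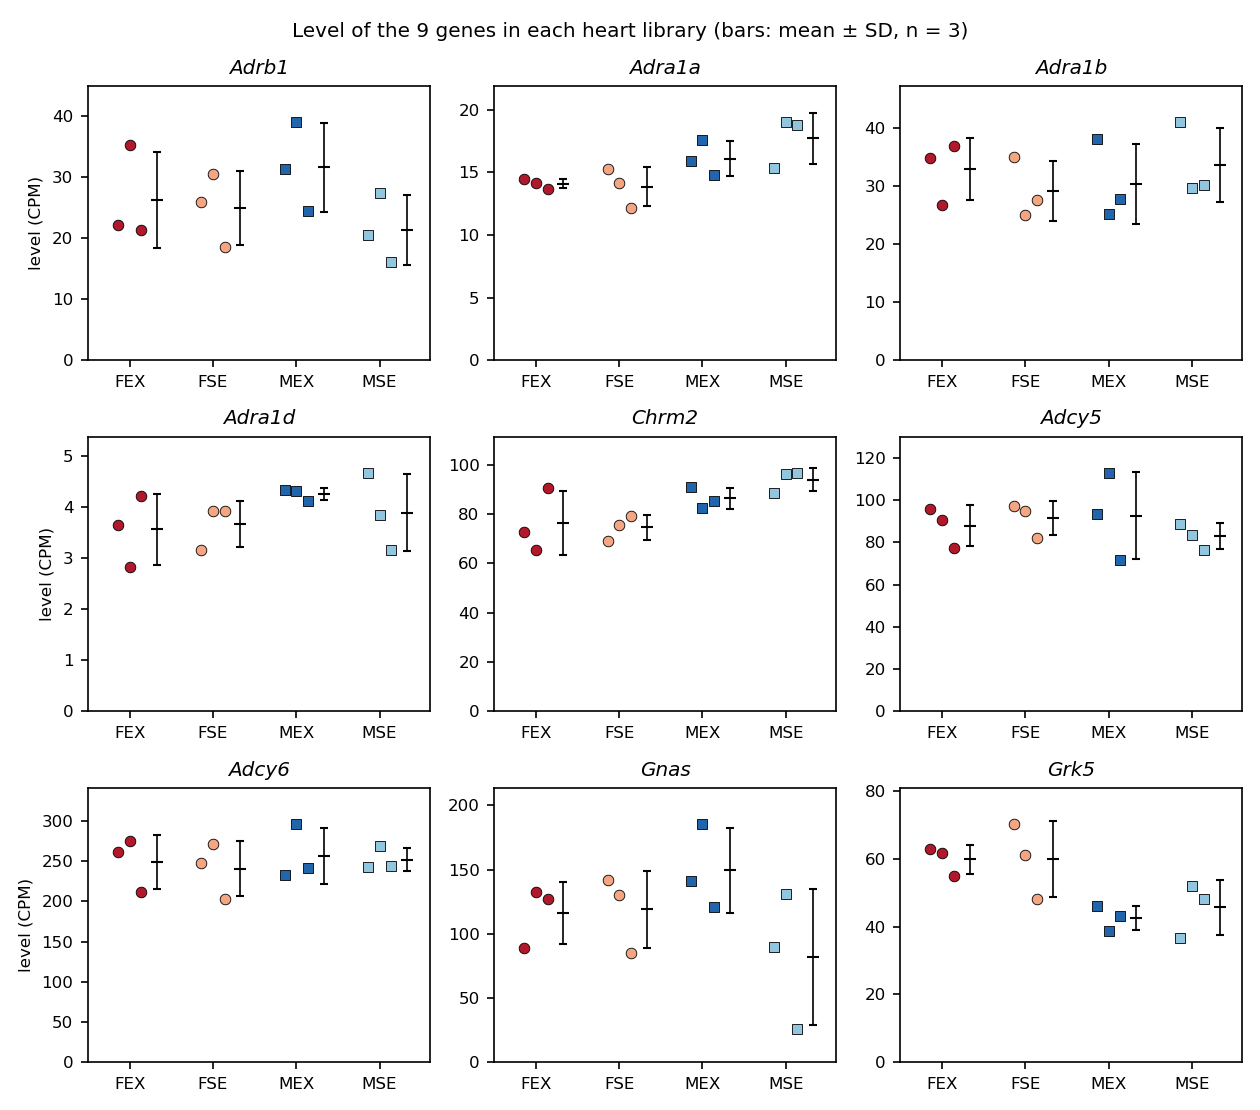
Level of each of the 9 genes (CPM, linear axes from 0) in every library, by group, with the mean ± SD of 3 libraries beside the points. Exercised and sedentary groups of the same sex overlap for all 9 genes, Grk5 is higher in most female than male libraries, and MSE 3 is far below the rest for Gnas.

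None of the 9 genes passed the test for exercise. Of all genes tested, 0% passed in females, in males, in the average over both sexes and in the difference of the sexes, and DESeq2, run as another test, called 1, 16, 11 and 5 genes in the same order, none of them among the 9. At an unadjusted p under 0.05, 0 of the 9 passed in any of these comparisons. The share of all genes there was 3.93% in females, 7.84% in males, 6.28% for the average and 4.74% for the difference. In no comparison of exercise did the groups of any of the 9 separate without overlap, against 9.79% of all genes in females and 12.3% in males. The median log2 fold change of the 9 was 0.02 in females and 0.03 in males, beside 0.00 over all genes in both. With no filter on low counts, edgeR's standard test gave Adrb1 in males an adjusted p of 3.46e-05 and Gnas one of 6.12e-18, with SEs of 0.106 and 0.0898 in place of 0.281 and 0.501; its bias-adjusted test without a filter gave 0.864 for both.

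**Figure D3:**
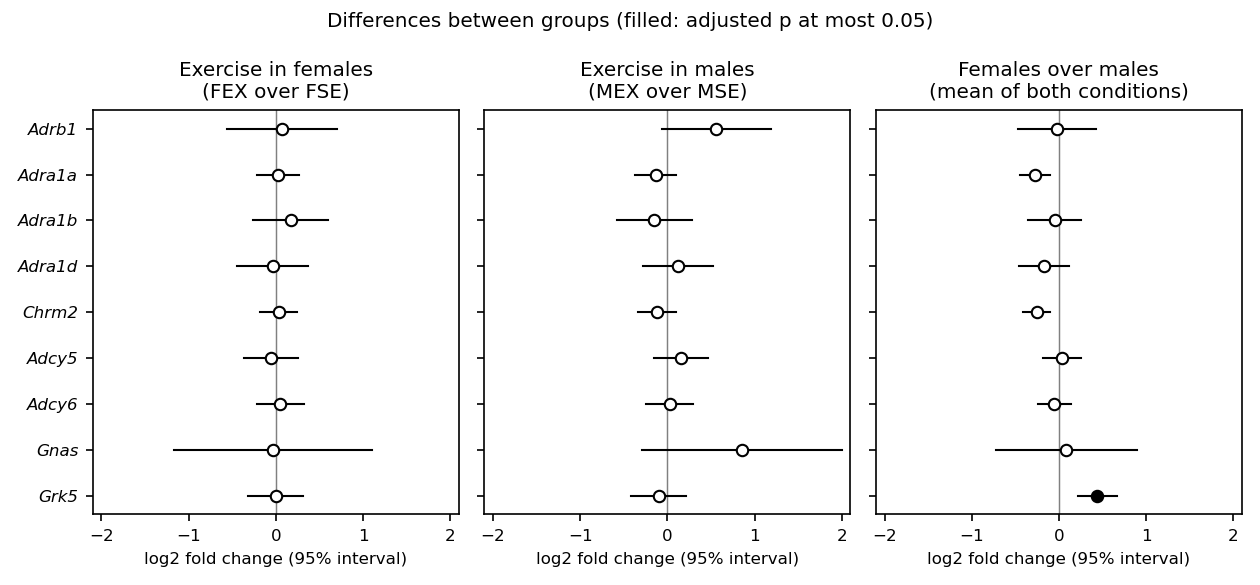
Log2 fold changes (points) with 95% intervals (lines) of the 9 genes for exercise in females, exercise in males and females over males averaged over both conditions. Every exercise interval includes 0, the widest belongs to Gnas, and Grk5 in the sex comparison is the filled point, at 0.44.

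The rest of the pathway was read from 14 lists, chosen with earlier results of these data known. They had 160 genes in the table and 146 tested, and none of these passed for exercise in either sex. At an unadjusted p under 0.05, 14 of the 146 (9.59%) were past it in the average over both sexes, beside 6.28% of all genes. One list holds genes induced through cAMP together with the factors that induce them. Of its 18 tested genes 7 were past that level, the most in any list, with 13 of the 18 above 0 and a median of 0.19. This list leaned with sex as well. For females over males, averaged over both conditions, 9 of the 18 were past that level, beside 21.2% of all genes. There 14 of the 18 lay above 0, with a median of 0.22. In the average exercise effect, Dusp1, a phosphatase gene induced within minutes of stimulation, had the smallest p of the lists, at 0.33 ± 0.07 (adjusted p = 0.691). Nr4a1, an immediate early nuclear receptor gene, was at 0.33 ± 0.12 and Ppargc1a, a coactivator of mitochondrial genes, at -0.36 ± 0.13 (adjusted p = 0.782 for both). Adcy1, a cyclase stimulated by calcium and at 0.224 RPKM over all libraries, was at -0.48 ± 0.18 (adjusted p = 0.782). Of 6 receptor kinases and arrestins outside the 9, 2 were past that unadjusted level, and Arrb1, the arrestin that uncouples beta receptors, was at -0.16 ± 0.07 (adjusted p = 0.782). Beside these values, none of the cell type markers passed, and their part in the values above was not tested. In the average exercise effect, all 6 macrophage markers lay above 0 (median 0.24), with 3 of the 6 at an unadjusted p under 0.05. All 5 red cell markers lay below 0 (median -1.72) and all 3 tested fat cell markers above 0 (median 1.83), with 0 at that level in both lists.

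Between the sexes, 1 of the 9 genes passed the test. Averaged over both conditions, Grk5 was 1.36 times as high in females as in males (log2 fold change 0.44 ± 0.10; 95% interval 0.22 to 0.66; adjusted p = 0.0295). Of all genes 5.05% passed this test. In exercised hearts the Grk5 groups did not overlap, as the lowest FEX library stood at 54.9 CPM and the highest MEX library at 45.9 CPM (0.49 ± 0.14; adjusted p = 0.264). In sedentary hearts they did overlap, since FSE 3 at 48.2 CPM lay below MSE 2 at 51.9 CPM (0.39 ± 0.14; adjusted p = 0.172). Without any of FEX 1, FEX 2, FSE 1, FSE 2, MEX 2, MEX 3 or MSE 3 the adjusted p of the average lay between 0.0546 and 0.0724, with values between 0.38 and 0.46. The 3 libraries with atrial transcripts, all female, had 61.5 (FEX 2), 70.3 (FSE 1) and 61.2 (FSE 2) CPM of Grk5, against 62.9, 54.9 and 48.2 CPM in the other 3 female libraries. Without those 3 libraries the value was 0.27 ± 0.11 (adjusted p = 0.27), and with an atrial score as a covariate it was 0.29 ± 0.11 (adjusted p = 0.223). With the base composition index as a covariate it was 0.48 ± 0.14 (adjusted p = 0.129).

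Marker lists moved with sex too, and the part of the non-atrial ones in the Grk5 difference was not tested. Averaged over both conditions, all 6 tested atrial markers lay above 0 (median log2 fold change 3.88, 5 at an unadjusted p under 0.05). Of these 6, 1, Dkk3, passed as higher in females. The 7 listed atrial markers summed to between 110 and 441 CPM in FEX and between 286 and 458 CPM in FSE, against 73.8 to 114 CPM in MEX and 77.3 to 170 CPM in MSE, with Bmp10 at 8 counts in all 12 libraries. Of 6 fibroblast markers 1, Lum, passed as higher in females, and the list summed to 782 to 857 CPM in FEX and 790 to 873 CPM in FSE, against 680 to 822 CPM in MEX and 729 to 764 CPM in MSE. Of 7 smooth muscle and pericyte markers 1, Acta2, passed as higher in females, and the list summed to 680 to 850 CPM in FEX and 707 to 728 CPM in FSE, against 657 to 774 CPM in MEX and 722 to 801 CPM in MSE. Lists with 0 markers past the adjusted test leaned with sex as well, in both directions. Of 6 endothelial markers 5 lay below 0 (median -0.05), and 2 of the 6 were at an unadjusted p under 0.05. They summed to 843 to 933 CPM in FEX and 862 to 1029 CPM in FSE, against 940 to 1001 CPM in MEX and 890 to 912 CPM in MSE. All 5 red cell markers lay above 0 (median 3.65, all 5 at an unadjusted p under 0.05), as did all 3 tested fat cell markers (median 4.59, all 3 at that level). Red cell markers summed to 17.8 to 293 CPM in FEX and 34.6 to 3630 CPM in FSE, against 12.7 to 86.2 CPM in MEX and 8.26 to 43.6 CPM in MSE. Fat cell markers summed to 0.603 to 86.7 CPM in FEX and 0.751 to 11.9 CPM in FSE, against 0.426 to 2.33 CPM in MEX and 0.528 to 0.677 CPM in MSE. All 6 macrophage markers lay above 0 (median 0.25, 2 at that level), and they summed to 191 to 198 CPM in FEX and 140 to 191 CPM in FSE, against 136 to 190 CPM in MEX and 109 to 165 CPM in MSE. In bulk tissue, fewer cells of a type and less RNA per cell cannot be told apart.

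Neither Chrm2 nor Adra1a passed the test between the sexes, though both had negative values in each condition. In sedentary hearts the FSE and MSE libraries of Chrm2 did not overlap, with the highest FSE library at 79.2 CPM and the lowest MSE library at 88.6 CPM (-0.33 ± 0.10; adjusted p = 0.102). Those of Adra1a did not overlap either, though its highest FSE and lowest MSE libraries were nearly equal (-0.35 ± 0.11; adjusted p = 0.117). In exercised hearts Chrm2 was at -0.18 ± 0.10 (adjusted p = 0.602) and overlapped, and Adra1a was at -0.19 ± 0.11 (adjusted p = 0.619) without overlap. The averages were -0.25 ± 0.07 for Chrm2 (adjusted p = 0.0539) and -0.27 ± 0.08 for Adra1a (adjusted p = 0.0628). Chrm2 passed with another scaling (RLE, adjusted p = 0.0494), DESeq2 (0.0159), voom (0.0275), no filter (0.00176, or 0.0449 with the bias-adjusted test) and without FEX 3 (0.00956). It stood at -0.12 ± 0.07 with the atrial score and at -0.17 ± 0.08 with the base composition index as a covariate, and at -0.16 ± 0.08 without the 3 libraries with atrial transcripts (adjusted p = 0.377). Of the 7 heart muscle markers 6 lay below 0 in females (median -0.09) and 4 were at an unadjusted p under 0.05, 3 of them lower and Myh7 higher, and their part in the values of Chrm2 and Adra1a was not tested. FEX 2, the library richest in atrial transcripts, had the lowest Chrm2 level of all 12, at 65.5 CPM. The others with atrial transcripts had 69.2 (FSE 1) and 75.5 (FSE 2) CPM of Chrm2. The remaining female libraries had 72.7 (FEX 1), 90.7 (FEX 3) and 79.2 (FSE 3) CPM. Adra1a passed with DESeq2 (0.0296), no filter (0.0456) and without MSE 1 (0.0397), and was at -0.37 without the 3 libraries with atrial transcripts (adjusted p = 0.122).

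Read against all genes, 2 of the 9 separated without overlap in sedentary and 2 in exercised hearts, where 25% and 14.3% of all genes did. At an unadjusted p under 0.05, 3 of the 9 were past it in sedentary hearts, 1 in exercised hearts and 3 for the average, and the shares of all genes were 18.4%, 9.84% and 21.2%. None of the 9 passed the adjusted test within a condition, where 2.21% of all genes did in sedentary and 0.16% in exercised hearts. The other 6 genes lay within 0.18 of 0 on the log2 scale for the average, with Gnas at 0.09 ± 0.35 the least precise and Adcy5 at 0.03 ± 0.10.

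Of the 146 tested genes in the rest of the pathway, 5 were higher and 11 lower in females by the average sex test (11%, against 5.05% of all genes). As the lists were chosen with earlier results of these data known, these shares are a description. The acetylcholine-gated channel gene Kcnj3, the partner of M2 signalling, had 57.4, 64.0 and 59.3 CPM in FEX and 49.2, 53.5 and 48.6 CPM in FSE, against 74.7, 63.1 and 57.9 CPM in MEX and 72.6, 71.9 and 72.6 CPM in MSE. Its sedentary groups are far apart and its exercised groups overlap. Kcnj3 was lower in females, at a log2 fold change of -0.32 ± 0.06 on average (adjusted p = 0.00994) and -0.52 ± 0.09 in sedentary hearts (adjusted p = 0.00875). Among effectors of the alpha-1 receptor, Prkce, a protein kinase C isoform, was lower in females, at -0.45 ± 0.07 (adjusted p = 0.00273). Maob, a monoamine oxidase that breaks down amines, was lower in females, at -0.39 ± 0.06 (adjusted p = 0.00271), and Ryr2, the calcium release channel phosphorylated by protein kinase A, was at -0.31 ± 0.07 (adjusted p = 0.0241).

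The enzymes that make and remove cyclic nucleotides passed in both directions. Pde9a, which breaks down cGMP, was higher in females, at 0.77 ± 0.12 (adjusted p = 0.00351), as was Pde1a, activated by calcium and calmodulin, at 0.43 ± 0.11 (adjusted p = 0.0449). Pde4a and Pde7a, which break down cAMP, were lower, at -0.34 ± 0.06 (adjusted p = 0.00469) and -0.47 ± 0.10 (adjusted p = 0.0194). Adcy7 was higher, at 0.45 ± 0.10 (adjusted p = 0.0242) and Adcy1 lower, at -0.72 ± 0.18 (adjusted p = 0.0384), while Adcy5 and Adcy6, which hold most of the cyclase total, did not pass. Of the kinase A regulatory subunits, Prkar2b was higher, at 0.86 ± 0.23 (adjusted p = 0.049) and Prkar2a lower, at -0.20 ± 0.05 (adjusted p = 0.0365). Pkia, an inhibitor peptide of the kinase, its anchor Akap6 and Rapgef4, a cAMP-activated exchange factor, were lower, at -0.33, -0.29 and -0.33, and Dusp1 was higher, at 0.32 ± 0.07 (adjusted p = 0.0278). Of these 16 genes, Kcnj3, Prkce, Maob, Pde9a and Pde4a passed whichever library was left out, and 6 of the 16 passed with the atrial score and 5 with the base composition index as a covariate. Without the 3 libraries with atrial transcripts 3 did (Prkce, Maob and Ryr2), and without MSE 3 the number was 6, and all 16 kept their sign in each setting. The atrial score moved Prkar2b to 0.44 (adjusted p = 0.401) and Pkia to -0.21 (adjusted p = 0.209), and the base composition index moved Pkia to -0.19 (adjusted p = 0.171) and Akap6 to -0.18 (adjusted p = 0.27).

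**Figure D4:**
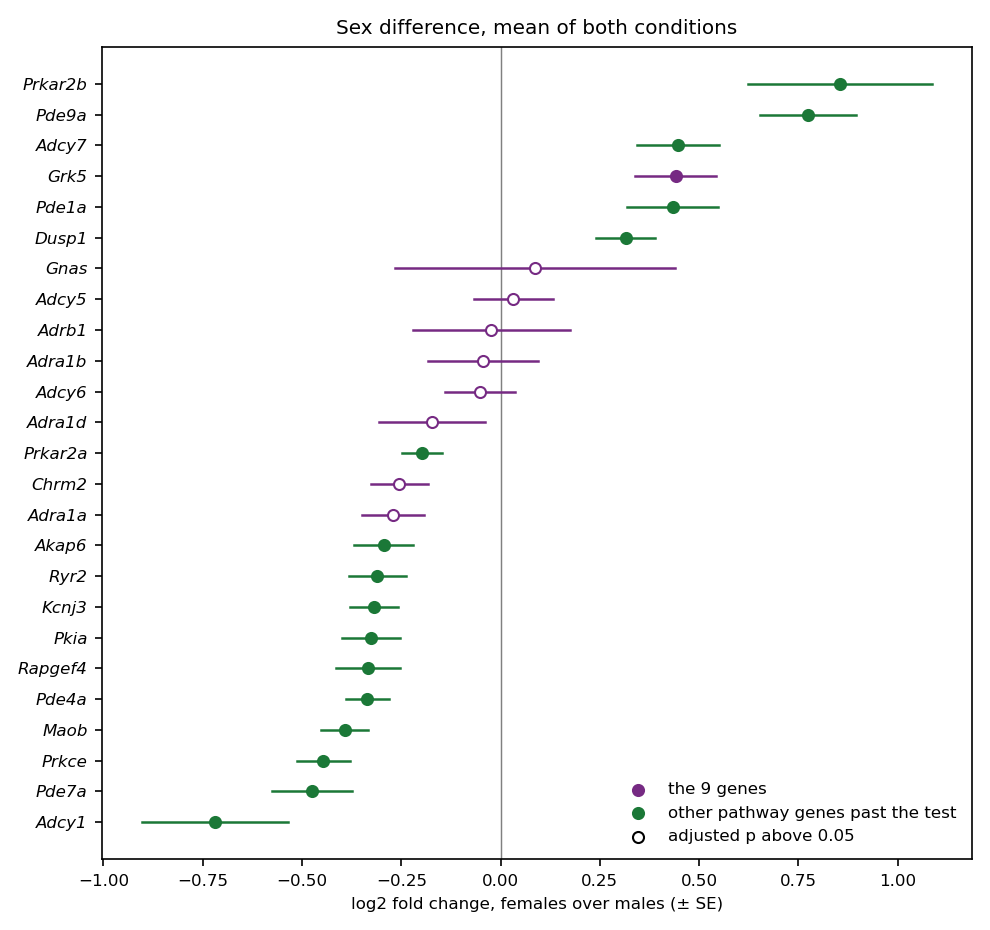
Log2 fold change of females over males, averaged over both conditions (± SE), for the 9 genes and for the 16 other pathway genes that passed the test. Grk5 lies among the genes higher in females, and Chrm2 and Adra1a lie as open points among genes that were lower.

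The 9 genes were also compared in pairs within groups. After group means were subtracted, Adrb1 ran with Adcy6 (Pearson r = 0.787, Spearman rho = 0.776) and with Gnas (r = 0.727, rho = 0.783) over the 12 libraries. Exact permutation within groups, over all arrangements, gave p = 0.0139 and p = 0.0108 for r, and p = 0.0177 and p = 0.0123 for rho. Of 36 pairs 4 had an unadjusted p under 0.05 and 0 passed after adjustment (Pearson adjusted p = 0.25 and Spearman adjusted p = 0.319 for both pairs named). Without the 2 libraries farthest from the median in Adrb1, FEX 2 and MSE 2, r was 0.766 and 0.683.

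The levels of the 9 genes were then set against the base composition index within groups. By Pearson r, Adcy5 was the only gene to pass, and by Spearman rho none did (Adcy5 r = 0.904, rho = 0.783; exact permutation p = 0.00309 and p = 0.0193; adjusted over 9 genes, p = 0.0278 and p = 0.0608). Adrb1 (r = 0.756), Adcy6 (r = 0.697) and Gnas (r = 0.65) came next with Pearson adjusted p of 0.0556, 0.0556 and 0.0833, and Spearman rho of 0.769, 0.692 and 0.797, each with an adjusted p of 0.0608. Chrm2 ran the other way (r = -0.497, adjusted p = 0.104; rho = -0.559, adjusted p = 0.114), and Grk5 showed little relation (r = -0.138, adjusted p = 0.727). Without MEX 3 and MEX 2, the libraries farthest from their group's index, r was 0.799 for Adcy5 (adjusted p = 0.139), 0.707 for Adrb1, 0.629 for Adcy6 and 0.732 for Gnas over fewer arrangements, and none of them passed. The longest annotated transcript of Adcy5 holds 59.5% G and C, a higher share than in 94.9% of genes of at least 1 CPM. That of Adrb1 holds 58.8% and that of Gnas 57.8%, against 41.6% for Chrm2 and 48.4% for Grk5. Adra1d, with 65.4%, had r = 0.178 at the lowest counts of the set. Adra1b, with 54.5%, had r = -0.141, and Adra1a, with 50.1%, had r = 0.262. The index sets genes from 55.4% G and C upward against genes up to 43.9%. Adcy5, Adrb1, Gnas and Adra1d are thus among the genes on its rich side, and Chrm2 on its poor side. A positive r for the former and a negative r for Chrm2 are therefore in part built into the index. Adcy6, at 55.4%, stands at the lower bound of the rich side, so the same may hold for its positive r. How many of all genes would pass against the index was not tested. By group the index was 0.04 ± 0.07 in FEX and 0.09 ± 0.04 in FSE, and 0.00 ± 0.16 in MEX and -0.14 ± 0.12 in MSE (SD, n = 3). The FSE libraries all lay above the MSE libraries, while MEX overlapped MSE and FEX overlapped MEX; the index was not tested between groups. With the index as a covariate the male exercise effects on Adcy5 and Adcy6 were -0.10 ± 0.09 and -0.14, against 0.16 and 0.03 without it.

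**Figure D5:**
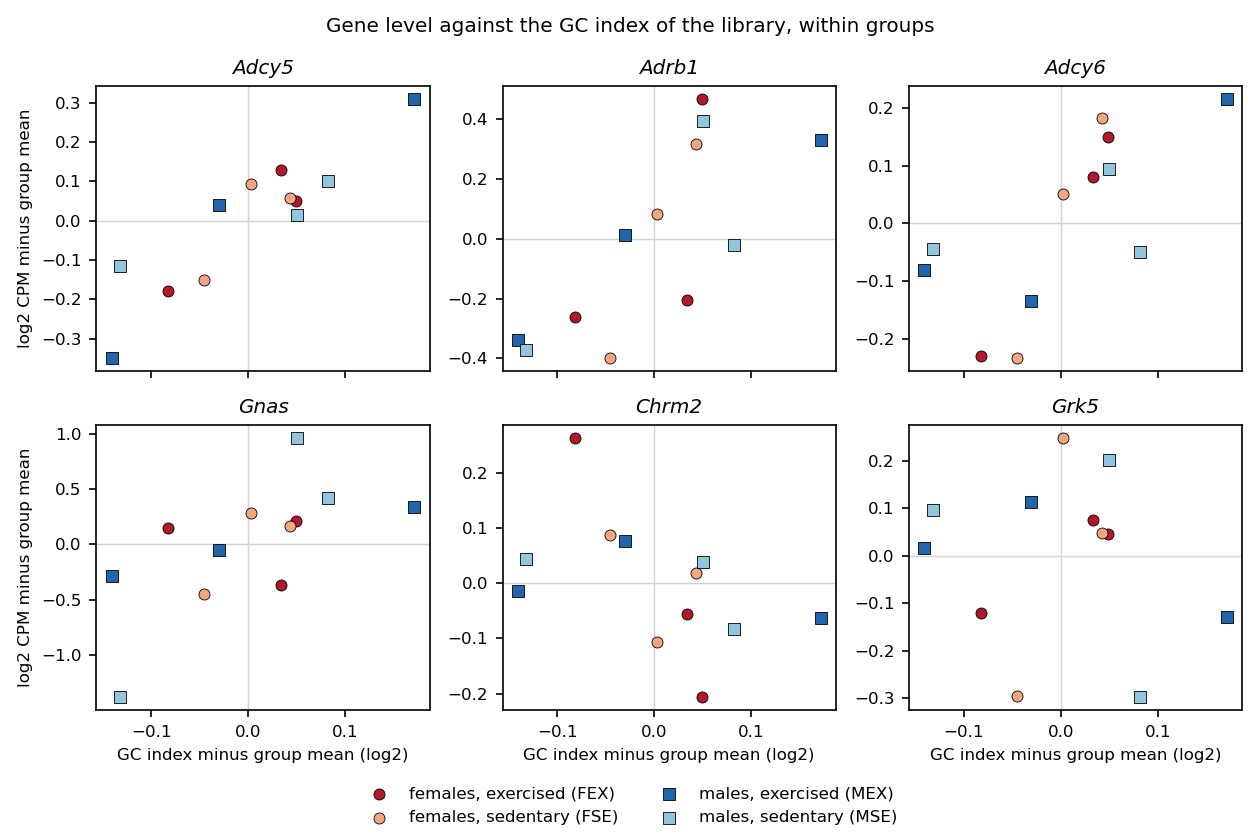
Log2 CPM of 6 of the genes minus its group mean, against the base composition (GC) index of the library minus its group mean, with one point per library. Points slope upward most tightly for Adcy5 (r = 0.904), less so for Adrb1, Adcy6 and Gnas (r between 0.65 and 0.756), downward for Chrm2 (r = -0.497), and hardly at all for Grk5.

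Among 13726 genes of at least 1 CPM, those most like each of the 9 over the 12 libraries, by Pearson r of log2 CPM, were for Grk5 the transcript 4933431K23Rik (0.938), Inhba (0.937) and Ednra, the endothelin A receptor gene (0.922). For Chrm2 they were Dcaf7 (0.924), Mettl6 (0.916) and Sec23a (0.913). For Adrb1 they were Sema6a (0.92), Wsb2 (0.92) and Rp2 (0.919), and for Adcy5 they were Akt2 (0.933), Dot1l (0.933) and Ell (0.916). For Adra1a they included Hfe (0.924) and Fam20b (0.917), for Adra1b they were Prps1 (0.926), Zfp386 (0.897) and Impa2 (0.896), and for Adra1d Ssx2ip (0.86), Alkbh3 (0.859) and Cdk17 (0.857). Those of Adcy6 were Slco3a1 (0.913), Atg13 (0.902) and Map3k3 (0.892). The highest value was that of Gnas with Sap30l, at 0.981, and 0.929 without the 2 libraries farthest from the Gnas median. These are the best of many genes over 12 points that share depth and base composition, and are a description. Group means were not subtracted here, so differences between the groups also enter these values.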

How the data were processed

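Bulk heart RNA of 12 libraries was deposited as a table of counts per gene. Per the submitters' processing notes, the authors trimmed reads with Trimmomatic 0.36, aligned them with STAR 2.5.2b to GRCm38 and counted them with featureCounts of Subread 1.5.2; the deposited counts are not normalized. The library kit, annotation release and strand setting of the counting are not stated. Of 55401 identifiers, 54349 matched GENCODE M21 (GRCm38) with their version and 55141 without it. Libraries of 1 group differed by more than counting noise (chi-square per degree of freedom 9.37 to 34.7), so none was taken for a copy of another.

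The test was that of edgeR (version 4.0.16, under R 4.3.3), after filterByExpr (16213 genes) and with TMM scaling: 1 group-means model over 12 libraries with 8 residual degrees of freedom, the robust quasi-likelihood test of 7 comparisons and Benjamini-Hochberg adjustment over all genes at 0.05. SEs are the log2 fold change over the root of the F value. CPM and RPKM were computed here from the deposited counts, with merged exon lengths. Correlations used log2 CPM (prior count 2). Precision rests on 3 libraries a group and, for Adra1d with 67 to 124 counts a library, also on counting error. Named genes were the 9 in every comparison, those of each pathway list that passed (up to 6 a comparison) or else up to 3 of smallest p, of which the text gives a part, and the 3 most alike by r, of which 1 is not reported here. The members and lists were chosen with earlier results of these data known. DESeq2 1.42.0, voom of limma 3.58.1, other scalings and filters, each library left out, the atrial score (mean log2 CPM of Myl7, Sln and Myl4) and the 9 libraries with Myl7 at most 10 CPM were the alternatives. The base composition index as a covariate, its correlations and the bias-adjusted test without a filter were added after seeing the data. The base composition index used genes of at least 1 CPM, with the G and C share of the longest annotated transcript of each.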

Additional observations from a re-analysis of the deposited data

How the results depend on the processing

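With 3 libraries a group the median SE over all genes was 0.14, and intervals for Gnas span over 2 log2 units. No paired analysis was possible because the labels give the groups no shared replicate numbers. Settings with 1 library left out keep 2 in its group, and the fit then takes the spread from all groups. Over 1485 values of the 9 genes under other settings, 106 changed sign, 21 became called and 10 lost a call, all of Grk5 between the sexes; the rest kept direction and side of the threshold. No value that changed sign was called before or after. The causes were not tested.

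Counts of all genes called moved most without a filter: 357 for exercise in females, 327 in males, 399 on average and 173 for their difference, against 0 for each with the filter, and 1317, 531 and 1683 for sex in sedentary hearts, in exercised hearts and on average, against 358, 26 and 818. DESeq2 gave 1, 16, 11, 5, 882, 167 and 1384 in the same order. For sex in sedentary hearts the atrial score gave 100, the 9 libraries 14 and the base composition index 34; on average these gave 260, 119 and 312. In exercised hearts a fit of only the groups compared gave 15 and the bias-adjusted test without a filter 43. Leaving out 1 library gave 0 to 1 for exercise in females (1 without FEX 3 or FSE 3), for the average (1 without MEX 3) and for the difference (1 without FEX 3). It gave 68 (without MSE 3) to 462 for sex in sedentary hearts, 17 (without MEX 3) to 55 (without MEX 1) in exercised hearts and 421 (without FEX 1) to 837 on average. In sedentary hearts the count was also 225 without FEX 1, 234 without FEX 2, 106 without FSE 1, 97 without FSE 2, 131 without FSE 3, 135 without MSE 1 and 236 without MSE 2. On average it was also 545 without FEX 2, 448 without FSE 1, 451 without MEX 3, 521 without MSE 1 and 427 without MSE 3.

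The log2 fold changes that changed sign were these. With 1 library left out, exercise in females ran between -0.20 and 0.24 for Adrb1, -0.062 and 0.096 for Adra1a, -0.18 and 0.10 for Adra1d, -0.11 and 0.13 for Chrm2, -0.13 and 0.026 for Adcy5, -0.060 and 0.15 for Adcy6, -0.23 and 0.12 for Gnas, and -0.14 and 0.12 for Grk5. Exercise in males ran between -0.35 and 0.022 for Adra1b, -0.0042 and 0.28 for Adra1d, -0.0094 and 0.31 for Adcy5, -0.087 and 0.094 for Adcy6, and -0.23 and 0.0052 for Grk5. The average exercise effect ran between -0.0904 and 0.0967 for Adra1b, -0.027 and 0.12 for Adra1d, -0.12 and 0.0039 for Chrm2, -0.034 and 0.13 for Adcy5, -0.020 and 0.090 for Adcy6, and -0.12 and 0.013 for Grk5. The difference of the sexes in exercise ran between -0.088 and 0.13 for Adcy6 and -0.039 and 0.23 for Grk5.

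Sex in sedentary hearts ran between -0.22 and 0.063 for Adra1d and -0.16 and 0.047 for Adcy6; sex in exercised hearts between -0.000403 and 0.32 for Adra1b, -0.23 and 0.093 for Adcy5, and -0.12 and 0.075 for Adcy6. The average sex effect ran between -0.16 and 0.088 for Adrb1, -0.12 and 0.057 for Adra1b, -0.044 and 0.12 for Adcy5, -0.10 and 0.0072 for Adcy6, and -0.12 and 0.34 for Gnas.

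With the atrial score, exercise in females was -0.00659 for Chrm2, 0.052 for Gnas and 0.046 for Grk5, the average exercise effect -0.00216 for Adra1b, sex in sedentary hearts -0.17 for Adrb1 and 0.12 for Adra1d, and the average sex effect 0.016 for Adra1b, 0.016 for Adra1d, -0.057 for Adcy5 and -0.18 for Gnas. In the 9 libraries, exercise in females was 0.0054 for Adra1d, 0.075 for Adcy5, 0.34 for Gnas and 0.29 for Grk5, the average exercise effect 0.039 for Adra1a and 0.096 for Grk5, sex in sedentary hearts -0.21 for Adrb1, 0.0051 for Adra1d and -0.017 for Adcy5, and the average sex effect -0.058 for Adcy5 and -0.21 for Gnas. With the base composition index, exercise in females was -0.000639 for Chrm2, 0.014 for Adcy5 and 0.17 for Gnas, exercise in males -0.10 for Adcy5 and -0.14 for Adcy6, the average exercise effect -0.043 for Adcy5 and -0.022 for Adcy6, the difference of the sexes 0.12 for Adcy5, sex in sedentary hearts -0.37 for Adrb1, -0.24 for Adcy5 and -0.18 for Gnas, and the average sex effect -0.18 for Adcy5 and -0.33 for Gnas. With voom, exercise in males was -0.023 for Adcy6, the average exercise effect -0.000931 for Adra1b, and sex in exercised hearts 0.0155 for Adcy5 and 0.018 for Adcy6. Without the 2 farthest libraries, r with the base composition index was -0.109 for Adra1a and 0.00561 for Grk5.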
